A study of Homo sapiens with 2 samples.

Results

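The 47 genes described here encode the enzymes that build the dolichol-linked oligosaccharide, the donor of N-glycans, and those that build and attach the glycosylphosphatidylinositol (GPI) anchor. They were chosen by a fixed list of gene symbols, matched to the Ensembl gene IDs of the count tables. Of 57820 IDs in the tables, 46 carried a listed symbol, and no row was matched to PIGW, the acyltransferase of the GPI pathway. The table of gene names pairs PIGW with 1 ID only, and an older ID of the gene was not looked for, so it is not analysed here. The list splits into 23 genes of the dolichol-linked steps and 24 of the PIG and PGAP steps (with GPAA1), and 45 of the 47 had a mean of at least 1 CPM (a gene's reads relative to the library's effective size) and are called measured.

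The cells were HEK293T, a human embryonic kidney line that carries the SV40 large T antigen. Messenger RNA of cells treated with a control siRNA was sequenced in 1 library, and that of cells treated with SRα siRNA in another. SRα, encoded by SRPRA, is the subunit of the signal recognition particle receptor that takes ribosomes making signal-bearing proteins to the endoplasmic reticulum (ER). Neither the time from siRNA treatment to harvest nor the siRNA sequences are stated in the labels. With 1 library per group there is no replicate check and no test between conditions, so a difference may belong to these cultures and not to the depletion. Every interval below is a 95% counting interval of these libraries only.

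Both pathways are built on the ER membrane. Each starts on the cytosolic face, where sugars are added to a lipid, continues in the lumen after the lipid is flipped across, and ends with transfer to a protein. Dolichol phosphate carries the N-glycan precursor and also carries the mannose and glucose used on the lumenal side. Dolichol-phosphate mannose is the mannose donor for the lumenal steps of N-glycan and GPI assembly alike, so DPM1, DPM2, DPM3 and MPDU1 serve both pathways. Nearly all of the enzymes are themselves membrane proteins of the ER.

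Reads assigned to genes numbered 2445200 with control siRNA and 3896721 with SRα siRNA, and measured members took 6042 and 9247 of them. SRPRA had 507 and 449 reads, or 205 and 117 CPM, so its level was 0.570 times that with control siRNA (log2 interval -0.998 to -0.63). Of 8 genes listed as markers of HEK293T cells, 7 had reads in both libraries, with summed levels of 774 and 892 CPM, and no row was matched for NEFL. Of 12 markers of blood, liver, endothelium, fibroblasts and mature kidney tubule, 2 had reads in both libraries (COL1A1 and COL3A1), with summed list levels of 15.7 and 13.8 CPM. PTPRC, CD3E, HBB, CDH5, UMOD and SLC34A1 were at 0 in both, and no row was matched for PECAM1. In bulk RNA, fewer cells making a message and less message per cell cannot be told apart.

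The differences in members between the libraries were small, and the PIG/PGAP enzymes leaned lower while the dolichol-linked steps were balanced around 0. Of 22 measured PIG/PGAP genes 16 were lower, with a median log2 ratio (SRα siRNA over control siRNA) of -0.09. Of 23 dolichol genes 11 were lower and 12 higher, with a median of 0.04. Over both pathways 27 of 45 members were lower and 18 higher, against 48.6% lower and 51.4% higher of the 12747 measured genes of the whole table, whose median was 0.01. A counting interval below 0 was found for ALG10, PIGM and PIGS (6.67% of members, against 3.39% of all measured genes). An interval above 0 was found for DPM1 (2.22% of members, against 5.46%).

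Counts of members past fixed limits were small, and are given beside the share of all measured genes past the same limit. An interval below 0 was found for 3 of 45 members (3.39% of all measured genes) and an interval above 0 for 1 of 45 (5.46%). A ratio at least 1.5-fold lower was found for 1 member, ALG10 (6.97% of all measured genes), and at least 1.5-fold higher for 1 member, ALG9 (6.55%), which had 2 and 6 reads. None was 2-fold apart in either direction, against 2.57% of measured genes lower and 2.15% higher.

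**Figure D1:**
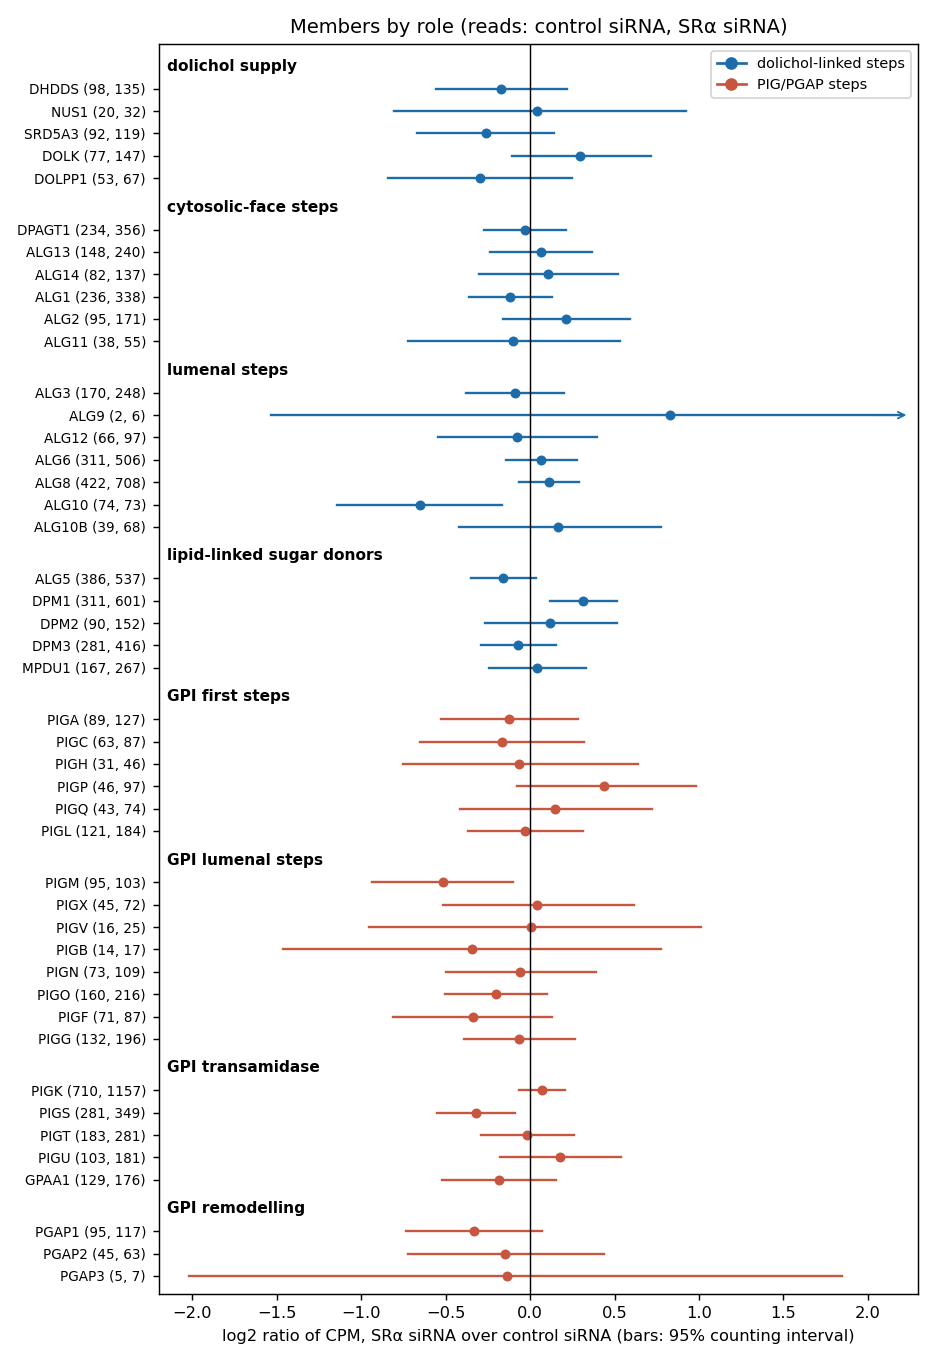
Log2 ratio of CPM (x axis) of each of the 45 measured members, grouped by role, with reads in the control siRNA and SRα siRNA libraries beside the gene name. Points are ratios and bars 95% counting intervals, with an arrow where the bar runs past the axis; only ALG10, PIGM, PIGS and DPM1 have bars that do not reach 0.

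The range of CPM mattered for this reading, because the ratios of low genes vary more from counting alone. Among the 15 members with at least 50 CPM 9 were lower, with a median of -0.03, against 40.1% lower and a median of 0.04 for all 4007 genes in that range. The 10 dolichol genes among them had 5 lower and a median of 0.01, and the 5 PIG/PGAP genes had 4 lower and a median of -0.07. Between 10 and 50 CPM 16 of 25 members were lower (median -0.08), against 52.3% of 4537 genes (median -0.01). In that range the medians of the 2 pathways were close, at -0.08 for 11 dolichol genes and -0.09 for 14 PIG/PGAP genes.

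The gap between the pathways depended on which members were counted. The difference of medians, dolichol minus PIG/PGAP, was 0.14 on the log2 scale, and 0.04 when only members with at least 10 CPM were kept. Without DPM1, DPM2, DPM3 and MPDU1, which belong to both pathways, the dolichol median was -0.03 and 10 of 19 genes were lower. The difference of medians was then 0.06. Summed over members, the dolichol genes had 3492 and 5476 reads and the PIG/PGAP genes 2550 and 3771. The difference between these summed log2 ratios was 0.08 (-0.01 to 0.18), an interval that includes 0. Without PIGK, the most-read PIG/PGAP gene, left out after its values were seen, that difference was 0.14 (0.04 to 0.25). Leaving out PIGK had to widen the difference, because its own ratio lay above the PIG/PGAP sum. Without DPM1, DPM2, DPM3 and MPDU1 the summed dolichol log2 ratio was -0.02 (-0.09 to 0.05). The summed PIG/PGAP log2 ratio, with PIGK kept, was -0.07 (-0.14 to 0.00164).

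**Figure D2:**
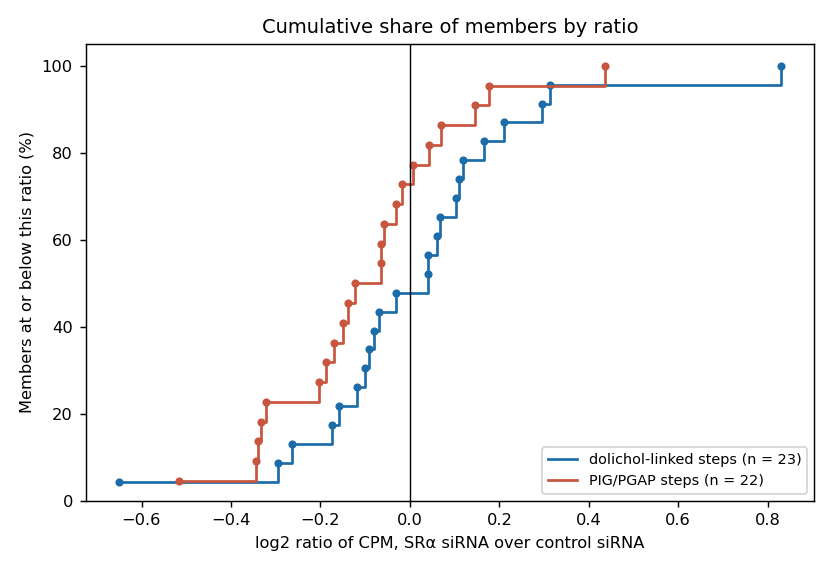
Cumulative share of members (y axis, percent) at or below each log2 ratio (x axis) for the 23 measured genes of the dolichol-linked steps and the 22 measured PIG/PGAP genes, 1 point per gene. The PIG/PGAP curve lies to the left over most of the range, reaching 72.7% at a ratio of 0 where the dolichol curve is at 47.8%, and both span both sides of 0.

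Genes that supply and recycle the dolichol lipid varied around 0. DHDDS and NUS1, which together form the cis-prenyltransferase that makes the polyprenyl chain, had log2 ratios of -0.17 (-0.56 to 0.22) and 0.04 (-0.81 to 0.93). SRD5A3, which reduces polyprenol, had -0.26 (-0.67 to 0.14). DOLK, the kinase that makes dolichol phosphate, was the highest of the group with 77 and 147 reads, or 31.1 and 38.2 CPM, and a log2 ratio of 0.30 (-0.11 to 0.71). DOLPP1, the phosphatase that returns dolichyl diphosphate to the cycle, was the lowest with 53 and 67 reads, or 21.4 and 17.4 CPM, and a log2 ratio of -0.30 (-0.84 to 0.25). No difference was detectable at this depth for any of these 5 genes.

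The 6 enzymes of the cytosolic face lay between log2 ratios of -0.12 and 0.21. DPAGT1, which commits dolichol phosphate to the pathway and is the target of tunicamycin, had 94.5 and 92.5 CPM. ALG13 and ALG14, the catalytic and membrane parts of the next transferase, had log2 ratios of 0.06 and 0.10. ALG1, the mannosyltransferase that follows, was the lowest with 236 and 338 reads, or 95.3 and 87.8 CPM, and a log2 ratio of -0.12 (-0.36 to 0.13). ALG2 was the highest with 95 and 171 reads, or 38.4 and 44.4 CPM, and a log2 ratio of 0.21 (-0.16 to 0.59). The mannosyltransferase ALG11 had -0.10 (-0.73 to 0.53), and 39.7% of its exonic bases lie in exons of UTP14C in GENCODE 29. Summed over the 6 genes the log2 ratio was 0.00 (-0.12 to 0.13). Sharing of exons with other genes reached at least 10% of exonic bases for 13 members. Besides ALG11, ALG9, ALG10 and PIGY they were DPAGT1 (21.3%), ALG1 (42.3%), ALG12 (42.1%), DPM2, MPDU1, PIGH, PIGQ, PIGB and PIGF (25.4%).

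Of the 7 lumenal enzymes 3 were lower, and they held both extremes of the members. The glucosyltransferases ALG6 and ALG8, which add the glucoses ahead of ALG10, were well read. ALG6 had 311 and 506 reads, or 126 and 132 CPM (log2 ratio 0.07, -0.14 to 0.27). ALG8 had 422 and 708 reads, or 170 and 184 CPM (log2 ratio 0.11, -0.07 to 0.29). The mannosyltransferases ALG3 and ALG12 had log2 ratios of -0.09 and -0.08. ALG9, a further mannosyltransferase, had 2 and 6 reads and a log2 ratio of 0.83 whose interval ran from -1.53 to 4.29, so its rank as the highest member rests on 8 reads. In GENCODE 29, 24.4% of its exonic bases also lie in AP001781.2. No row of the counts was matched to AP001781.2 by symbol, and the annotation used for counting is not named. Whether this overlap cost ALG9 any reads was not tested.

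ALG10 adds the terminal glucose that the oligosaccharyltransferase recognises, and ALG10B is a near-identical copy of it. ALG10 had 74 and 73 reads, or 29.9 and 18.97 CPM, a log2 ratio of -0.65 (-1.14 to -0.17). ALG10B had 39 and 68 reads, or 15.7 and 17.7 CPM, a log2 ratio of 0.16 (-0.42 to 0.77). ALG10 was thus the lowest of the 45 members, while its copy was on the other side of 0, and the difference between them was -0.82 (-1.61 to -0.04). Their reads added together were 113 and 141, for a summed log2 ratio of -0.32 (-0.68 to 0.05), which includes 0.

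The 2 coding sequences show how far reads of the copies can be separated. Over 1419 bases they differ at 33 positions (97.7% identical). Within the coding part only reads that cover a differing base can be placed uniquely. The transcript parts outside it were not compared. The start of each coding sequence (bases 1 to 150 of the longest coding transcript, from GENCODE 29 on GRCh38) is printed to show the spacing of such bases, 5 of which fall here and are in capitals.
ALG10: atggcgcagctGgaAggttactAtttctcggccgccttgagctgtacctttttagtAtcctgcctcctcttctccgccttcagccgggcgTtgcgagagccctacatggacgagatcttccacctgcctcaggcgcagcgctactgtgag
ALG10B: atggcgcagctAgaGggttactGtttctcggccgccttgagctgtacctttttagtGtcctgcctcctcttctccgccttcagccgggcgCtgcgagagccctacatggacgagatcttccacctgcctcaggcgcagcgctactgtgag
The longest run shared by both, bases 758 to 905, is printed because a read inside its 148 bases fits both genes equally.
Shared run: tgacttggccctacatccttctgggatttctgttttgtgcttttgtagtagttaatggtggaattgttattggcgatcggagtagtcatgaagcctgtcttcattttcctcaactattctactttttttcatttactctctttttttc
Alignments that were not unique made up 79.6% and 76.5% of all entries in the 2 libraries and were not assigned to genes. In addition, 42.2% of the exonic bases of ALG10 lie in exons of AC046130.1. ALG10 and ALG10B values are therefore uncertain, and the part of lost reads in their difference was not tested.

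Of the 5 genes for lipid-linked sugar donors, only DPM1 had a counting interval that excludes 0. Among genes of at least 50 CPM, the range of DPM1, an interval above 0 was found for 11.7% of all genes and 1 of 15 members. DPM1, the catalytic subunit of dolichol-phosphate mannose synthase, had 311 and 601 reads. Its level was 126 CPM with control siRNA and 156 with SRα siRNA, a log2 ratio of 0.31 (0.11 to 0.52). DPM2, the membrane subunit that stabilises the complex and also joins the first GPI enzyme, had 90 and 152 reads, or 36.3 and 39.5 CPM (log2 ratio 0.12, -0.27 to 0.51). DPM3, which tethers DPM1 to the membrane, had 281 and 416 reads, or 113 and 108 CPM (log2 ratio -0.07, -0.29 to 0.15). DPM1, the subunit that was higher, is also the one with no predicted hydrophobic segment. The other members without a segment, DHDDS, ALG13 and PIGX, had log2 ratios of -0.17, 0.06 and 0.04, and a link was not tested.

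MPDU1, which is needed for use of dolichol-phosphate sugars in the lumen, had 167 and 267 reads, or 67.4 and 69.4 CPM (log2 ratio 0.04, -0.24 to 0.33). ALG5, the dolichol-phosphate glucose synthase, was the lowest of the group with 386 and 537 reads, or 156 and 140 CPM (log2 ratio -0.16, -0.35 to 0.03). Among the 5 donor genes DPM3 and ALG5 lay below 0 and the others above it, and only the DPM1 interval excluded 0.

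Among the PIG/PGAP genes, those of the first GPI steps had no interval that excludes 0. PIGA is the catalytic subunit of the transferase that puts N-acetylglucosamine on phosphatidylinositol and had a log2 ratio of -0.12 (-0.53 to 0.28). Its partner PIGC was the lowest of the group with 63 and 87 reads, or 25.4 and 22.6 CPM (-0.17, -0.65 to 0.32). PIGP had the highest ratio of all PIG/PGAP genes, with 46 and 97 reads, or 18.6 and 25.2 CPM (0.44, -0.08 to 0.98). PIGH and PIGQ, further subunits, had -0.07 and 0.15, and PIGL, the de-N-acetylase that follows, had -0.03 (-0.37 to 0.31).

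PIGY, the smallest subunit of this transferase, had 0 reads in both libraries. A count of 0 allows up to 3 reads, or 1.21 and 0.780 CPM, for counting error only. All of its exonic bases (100%) lie in exons of PYURF, which is read from the same transcript and had 0 and 1 reads. Reads that match several genes were kept apart from the counts, so the zero is a statement about assigned reads and not about the message.

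The lumenal GPI enzymes, which add mannose and ethanolamine phosphate, were the role group whose summed reads gave an interval below 0. Of 8 measured genes 6 were lower, the median was -0.13, and the summed reads of 606 and 825 gave a log2 ratio of -0.19 (-0.34 to -0.04). PIGM, the catalytic subunit of the first GPI mannosyltransferase, had 95 and 103 reads. Its level was 38.4 CPM with control siRNA and 26.8 with SRα siRNA, a log2 ratio of -0.52 (-0.94 to -0.10). PIGM was the only gene of the group with an interval below 0. Its own ratio lay below the sum, so leaving it out would raise the summed ratio. Whether the group's interval would still lie below 0 without PIGM was not computed. The intervals of the role groups take no account of the number of groups. PIGX, the subunit that stabilises PIGM, was the highest of the group with 45 and 72 reads, or 18.2 and 18.7 CPM (0.04, -0.51 to 0.61). The PIGX interval includes 0, so no direction can be given for it. The difference of -0.56 (-1.27 to 0.15) between PIGM and PIGX includes 0 as well.

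PIGV and PIGB, the mannosyltransferases that follow, had log2 ratios of 0.01 and -0.34 from at most 25 reads in a library. PIGN, PIGO and PIGG are the catalytic ethanolamine phosphate transferases, and they had -0.06 (-0.50 to 0.39), -0.20 (-0.50 to 0.10) and -0.07 (-0.39 to 0.26). PIGF, the shared partner of PIGO and PIGG, had -0.34 (-0.81 to 0.13). All 4 lay below 0, each with an interval that includes it.

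The GPI transamidase, which removes the C-terminal signal of the protein and attaches the anchor, held the best-read member of all. PIGK, its protease subunit, had 710 and 1157 reads, or 287 and 301 CPM (log2 ratio 0.07, -0.07 to 0.21). PIGS, a further subunit, had 281 and 349 reads. It stood at 113 CPM with control siRNA and 90.7 with SRα siRNA, a log2 ratio of -0.32 (-0.55 to -0.09). PIGU was the highest with 103 and 181 reads, or 41.6 and 47.0 CPM (0.18, -0.18 to 0.54). PIGT had -0.02 (-0.29 to 0.26) and GPAA1 -0.19 (-0.52 to 0.15). Summed over the 5 subunits the ratio was -0.03 (-0.12 to 0.07), and PIGS was the only subunit with an interval off 0.

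The 3 genes that remodel the anchor after attachment were all lower. PGAP1, which removes the inositol acyl chain in the ER, had 95 and 117 reads, or 38.4 and 30.4 CPM (-0.33, -0.74 to 0.07). PGAP2 and PGAP3, which act on the lipid in the Golgi, had -0.15 (-0.73 to 0.43) and -0.14 (-2.02 to 1.85). PGAP3 had 5 and 7 reads, or 2.02 and 1.82 CPM. Summed over the 3, reads were 145 and 187 and the log2 ratio was -0.27 (-0.59 to 0.05), which includes 0.

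Ratios between subunits of a complex do not depend on how the libraries are scaled, so 28 pairs from 7 complexes or shared-partner enzymes were compared. The exact interval of the difference excluded 0 for 3 pairs in 2 complexes. PIGS was lower relative to PIGK by a log2 difference of -0.39 (-0.66 to -0.12), and lower relative to PIGU by -0.50 (-0.93 to -0.07). DPM1 was higher relative to DPM3 by 0.38 (0.08 to 0.69). The pairs share genes with each other, they were compared with the members' ratios known, and their intervals take no account of the number of pairs. For PIGP against PIGA, PIGC, PIGH and PIGQ the differences were 0.29 to 0.61, with all 4 intervals reaching below 0. DHDDS against NUS1 (-0.22, -1.19 to 0.73) and ALG13 against ALG14 (-0.04, -0.56 to 0.47) gave wide intervals that would still allow sizeable differences.

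**Figure D3:**
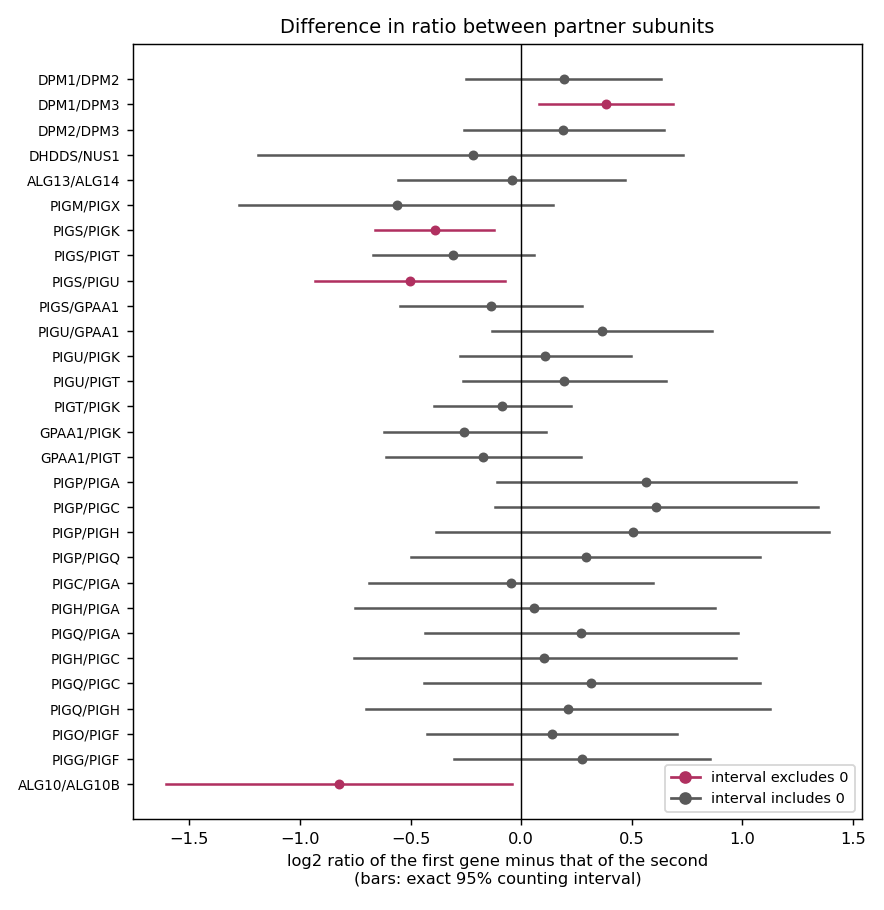
Difference in log2 ratio (SRα siRNA over control siRNA) between the first and the second gene of each pair (x axis), for 28 pairs of partner subunits and for ALG10 against ALG10B. Points are differences and bars exact 95% counting intervals; the bars of DPM1/DPM3, PIGS/PIGK, PIGS/PIGU and ALG10/ALG10B do not reach 0.

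Levels were compared between genes as CPM per kilobase, with the length of the transcript that holds the longest coding sequence in GENCODE 29. DPM3 was the highest at 219 CPM per kb with control siRNA and 209 with SRα siRNA. ALG5 (135.1 and 121), DPM1 (108 and 134.5) and ALG8 (101.7 and 110) followed. ALG5 was above DPM1 with control siRNA and below it with SRα siRNA. The most abundant PIG/PGAP message was PIGK, at 62.4 and 65.4 CPM per kb. Of the transamidase subunits, PIGS, PIGT, PIGU and GPAA1 lay between 22.0 and 39.4. Within the mannose synthase, DPM2 stood at 49.2 and 53.5, below both of its partners. Among the lowest were NUS1 at 1.73 and 1.78, PGAP3 at 0.738 and 0.665, and ALG9 at 0.390 and 0.754. PGAP3 rests on 5 and 7 reads and ALG9 on 2 and 6. Reads that match several genes were kept apart from the counts, so levels of genes that share exons may be understated. If cells use a shorter transcript than the one taken, as may be so for the long ALG10B, PGAP1 and ALG14 models, the level per kilobase is understated.

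**Figure D4:**
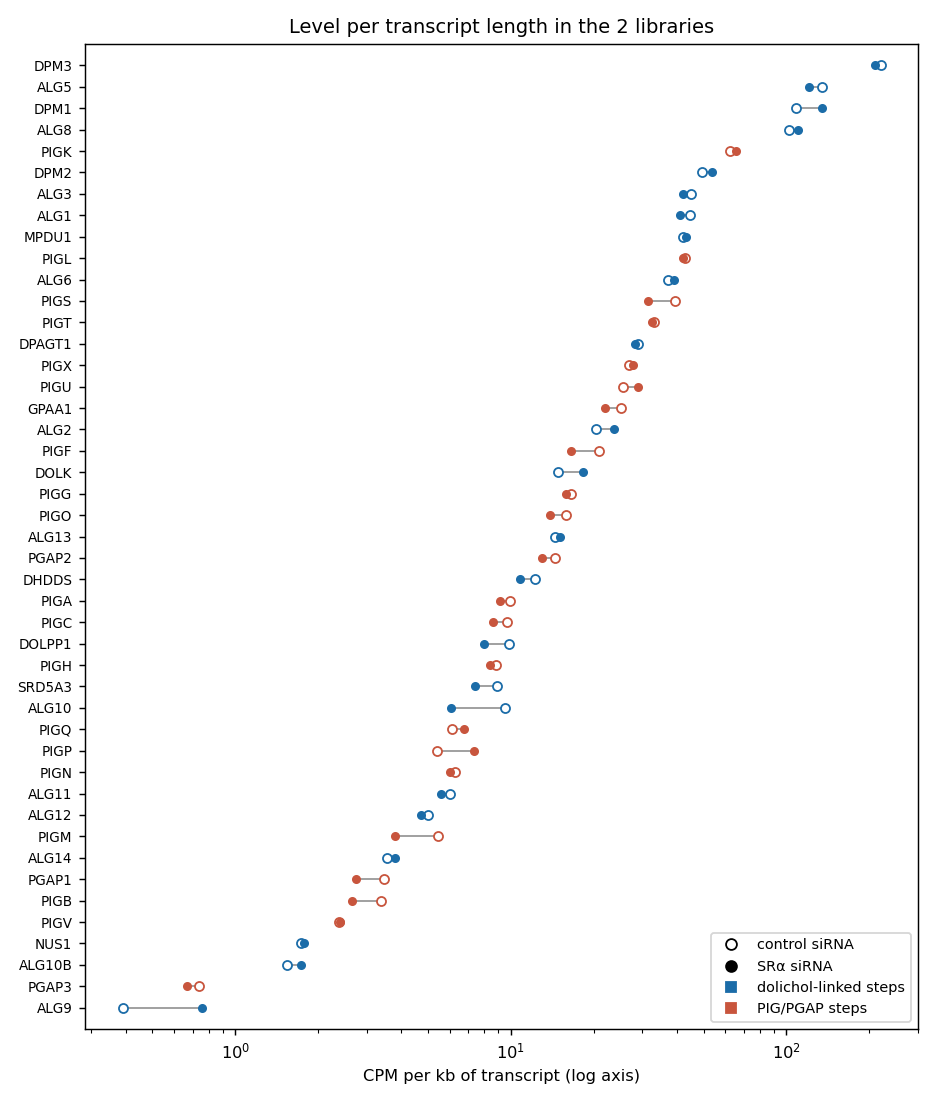
Level of each measured member in CPM per kb of transcript (x axis, log scale), with open points for the control siRNA library and filled points for the SRα siRNA library. The donor genes DPM3, ALG5 and DPM1 with ALG8 lead at over 100 CPM per kb, and PIGK is the highest PIG/PGAP gene.

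The members share features that the list did not use. With the Kyte-Doolittle scale, 41 of 45 had at least 1 predicted hydrophobic segment, against 33.7% of 11440 measured protein-coding genes. The 4 without were DHDDS, ALG13, DPM1 and PIGX. The coding sequence used for PIGX was the longest that begins with ATG, at 150 residues, and may lack part of the protein. At least 3 segments were predicted for 28 of 45 members, against 8.85% of the protein-coding genes, with a highest count of 14. Members with at least 3 segments had a median log2 ratio of -0.10 and the 17 with fewer had 0.04, and the same medians over measured protein-coding genes were -0.06 (1013 genes) and 0.02 (10427 genes). The median GC content was 46.9% for the dolichol genes and 48.2% for the PIG/PGAP genes. Across the 45 members, which are not replicates, ratio and GC had a Spearman correlation of -0.04 (Pearson 0.02), against -0.17 (Pearson -0.11) across 12592 measured genes of known GC content and -0.27 (Pearson -0.27) across the 3958 of at least 50 CPM.

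Other genes of the 2 pathways lay on both sides of 0. The 11 enzymes that supply the sugar nucleotides had 5 lower and 6 higher, with a median of 0.04. Their summed log2 ratio was 0.09 (0.01 to 0.17), an interval above 0. That interval also takes in the summed log2 ratio of all measured genes, 0.036 (0.034 to 0.039). GNPNAT1, which acetylates glucosamine phosphate on the way to UDP-GlcNAc, was the highest with 210 and 397 reads, or 84.8 and 103 CPM, and a log2 ratio of 0.28 (0.04 to 0.53). GMPPB, the catalytic subunit of GDP-mannose pyrophosphorylase, was the lowest at -0.62 (-1.73 to 0.46) from 16 reads in each library, which is past the 1.5-fold limit. Of 8 other pathway factors 6 were measured, with 3 lower and a median of -0.04. PGAP4, the Golgi enzyme that adds N-acetylgalactosamine to GPI, had -0.41 (-0.96 to 0.15), and MPPE1 (PGAP5), which trims an ethanolamine phosphate, had 0.40 (-0.55 to 1.45). PIGZ, the enzyme of the fourth mannose, had 0 reads in both libraries.

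Next along each pathway stand the enzyme that uses the glycan and the proteins that receive the anchor. Of 12 oligosaccharyltransferase genes 9 were lower, against 48.6% of all measured genes, with a median of -0.07. Their summed log2 ratio was -0.07 (-0.10 to -0.04), against 0.01 (-0.05 to 0.07) for the dolichol genes that make the enzyme's substrate. Intervals lay below 0 for the catalytic STT3A (-0.10, -0.18 to -0.01), DDOST (-0.15, -0.25 to -0.05), DAD1 (-0.20, -0.37 to -0.04) and the small subunit OST4, the lowest at -0.26 (-0.49 to -0.03). These were 4 of 12 genes, against 3.39% of all measured genes and 4.89% of those of at least 50 CPM. The list's median level was 277 CPM, against 34.5 for the members, and better-read genes have narrower intervals. TMEM258 was the highest at 0.15 (-0.08 to 0.38). Of 48 listed GPI-anchored proteins 35 were measured and 24 were lower, against 48.6% of all measured genes. Their median was -0.19, against -0.09 for the PIG/PGAP enzymes, but means (-0.10 and -0.10) and summed log2 ratios (-0.07, -0.14 to -0.00180, and -0.07, -0.14 to 0.00164) showed no such gap. Intervals lay below 0 for the heparan sulfate proteoglycan GPC1 (-0.44, -0.85 to -0.03), NRN1 (-0.53, -1.03 to -0.04) and the NKG2D ligand ULBP3 (-0.48, -0.94 to -0.02), and above 0 for the adhesion protein CNTN1 (0.47, 0.07 to 0.89). These were 3 and 1 of 35 genes, against 3.39% and 5.46% of all measured genes. Among the GPI-anchored proteins of at least 5 CPM, the alkaline phosphatase ALPL was the lowest at -0.57 (-1.44 to 0.29).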

How the data were processed

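Per the labels' protocols, TRIzol was used for extraction and a TruSeq Stranded mRNA kit for the libraries. The authors deposited raw counts of reads for each Ensembl gene ID, without normalization. cutadapt and STAR 2.5.2b with build hg19 are named in the submitters' processing notes; no source used here names the counting program, its strand setting or its annotation, so reads of overlapping genes on either strand cannot be told apart. The 5 summary lines of each file stayed out of library sizes. Reads matching several genes were 4.67% and 4.58% of uniquely aligned reads, and those in no gene 7.23% and 7.49%. No molecular identifiers are named, so intervals cover counting error only.

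Counts were scaled by TMM (edgeR 4.0.16, R 4.3.3) to effective sizes of 2476276 and 3847820. Log2 ratios used a prior count of 0.5, with exact (Clopper-Pearson) binomial 95% intervals. Differences between genes or sums have exact conditional intervals. Symbols came from a gene name table by gene ID, and length, GC content, overlap and coding sequences from GENCODE 29 by the same IDs. No coordinates are given, since an hg19 annotation was not used here. Hydrophobic segments were 19-residue windows averaging 1.6 or more on the Kyte-Doolittle scale, or 12-residue windows averaging 2.0 or more within the first 25 residues. Named genes are members whose interval excludes 0 or that lie 1.5-fold apart, the 6 best read, role group extremes, the DPM genes and MPDU1, and extremes of at least 5 CPM or intervals off 0 in the other lists. The members, lists and alternatives were chosen with earlier results of these data known. Alternatives were DESeq2 1.42.0 size factors, other scalings, filters, prior, thinning and membership. The procedure was tested on simulated counts. Python 3.11.15, numpy 2.4.6, scipy 1.17.1, pandas 2.3.3 and matplotlib 3.10.9 were used.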

Additional observations from a re-analysis of the deposited data

How the results depend on the processing

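No paired analysis was possible because each group has 1 library. Leaving out a library was not possible either. The PIG/PGAP median stayed below 0 in all 16 alternatives (-0.13 to -0.06) and the difference of medians stayed above 0 (0.0352 to 0.16), means and summed CPM in place of medians included. Several alternatives could hardly change these values. The other scalings shift both pathways nearly alike, and the difference stayed at 0.1348 to 0.1351. Dropping the CPM filter, or leaving out ALG10, ALG10B and PIGY, gave the main difference again. Leaving out DPM1, DPM2, DPM3 and MPDU1 cannot alter the PIG/PGAP median. With at least 10 CPM required, the dolichol median was -0.0304 and the difference of medians was 0.0352. With DPM1, DPM2, DPM3 and MPDU1 left out, the dolichol median was -0.0304 as well. The count of members at least 1.5-fold higher, 1 in the main setting (ALG9), was 0 after thinning, with at least 5 CPM and with at least 10 CPM required. By construction the CPM limits remove ALG9. Members lower were 24 after thinning, 26 and 25 with at least 5 and 10 CPM required, and 27 to 28 in the other alternatives run. Intervals below 0 numbered 3 to 4 and above 0 stayed at 1 in every alternative run for them, and SRPRA ranged from -0.85 to -0.81. Of the 45 members' own ratios, thinning changed the sign of 5, and each of the 5 other scalings and the prior count of 2 that of at most 1; signs were not counted after centring. Removing members that share exons and centring by CPM band and GC content were added after the data were seen. Depth limits most members: 27 of 45 had under 100 reads in the control siRNA library, and the median distance from ratio to interval bound over all 45 was 0.40 on the log2 scale.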
